A study of Mus musculus with 4 samples.

Results

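Chemokine ligands are the small secreted proteins that guide leukocytes, and 36 of their genes were read from RNA-Seq libraries of CD4+ T cells taken out of mouse lung tumors. The members were a list of named ligand genes, taken wherever the count files held them and arranged by the cell that usually makes each one. All 36 were present among the 25239 gene symbols counted, 32 passed the filter on low counts, and 30 had at least 20 counts in some library. Of the 4 left out by the filter, *Ccl19* and *Ccl20* had 0 counts in every library, *Ccl1* had 2 to 11 counts and *Ccl27a* had 5 to 12. The study compared 2 libraries labelled WT with 2 labelled CD4/ALK4-KO, genotype CD4CreERT2+/-/Acvr1bfl/fl, all on the C57BL/6 background. In the knockout, tamoxifen (75 mg/kg a day for 5 days) switches on a Cre recombinase driven by the *Cd4* promoter, which removes ALK4, the type I receptor of activin-A that *Acvr1b* encodes. The methods do not state whether WT mice received tamoxifen, and a *Cd4*-driven Cre can act in any cell that has used that promoter. All mice were males of 8 to 10 weeks that received 500000 LLC-OVA cells, a lung carcinoma line carrying ovalbumin, into a vein. Tumors were harvested on days 18 to 22 according to the labels, and the methods give days 16 to 20 for the CD4/ALK4-KO model. In the following, "under WT" and "under CD4/ALK4-KO" stand for the pairs of libraries that carry those labels. The replicates are called biological, and the number of mice behind each library is not given.

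A chemokine is bound on the target cell by a receptor that spans the membrane repeatedly, and the cell moves toward the higher concentration. CC ligands mostly draw monocytes, eosinophils and lymphocytes, CXC ligands that bind CXCR2 draw neutrophils, and the interferon-induced CXC ligands draw activated T cells through CXCR3. In lung tumors these proteins come from T cells, macrophages, dendritic cells, fibroblasts, epithelium and the tumor cells themselves. A CD4+ T cell is itself a usual source of only a few of them, such as CCL5, CCL3, CCL4 and XCL1.

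The files held 11823908 to 13943237 counts a library, and ligand genes took 0.513% and 0.477% of them under WT and 0.442% and 0.440% under CD4/ALK4-KO. *Acvr1b*, the targeted gene, had 426 and 342 counts in the former and 322 and 445 in the latter, so it did not separate the labels (log2 fold change 0.16 ± 0.24 SE; edgeR's quasi-likelihood test gave an adjusted p of 0.66). *Cd4*, the gene that defines the isolated cell, stood at 51.7 ± 5.24 CPM (counts scaled to the size of the library; mean ± SD, n = 2) under WT and at 317 ± 13.9 CPM under CD4/ALK4-KO. All 12 T cell markers tested were higher in the latter, with a summed level of 425 to 464 CPM against 2305 to 2419 CPM and *Cd3g* and *Lck* as the most abundant of those named here. Fewer cells of a type and less RNA per cell cannot be told apart in such bulk libraries. The choice of scale therefore matters for every ligand below. The CPM values and the tests use the whole library as the scale, on which the median log2 fold change of all genes was −0.0082. On a scale set by the T cell receptor genes *Cd3d*, *Cd3e*, *Cd3g* and *Cd247*, that median was −2.19 and all 32 ligands lay below 0, whatever they did per library. So did every tested macrophage, monocyte, neutrophil, dendritic cell, fibroblast, endothelial and platelet marker named below, while the T cell, B cell and CD8 and NK cell lists held genes on both sides of 0.

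On the library scale, 5 of the 32 tested ligands were higher under CD4/ALK4-KO (15.6%) and 11 were lower (34.4%), where 17.4% of all 13919 genes tested were higher and 15.4% lower. In either direction 50% of the ligands passed the test, against 32.8% of all genes (adjusted p under 0.05). The 5 were *Xcl1*, *Ccl22*, *Ccl5*, *Cxcl9* and *Cxcl3*, and none of them was higher on the T cell receptor scale. The 11 were *Ccl11*, *Ccl28*, *Pf4*, *Ccl8*, *Ccl25*, *Ccl12*, *Ccl2*, *Ccl7*, *Cxcl13*, *Ppbp* and *Cxcl1*, and their direction was downward on each of the 5 scales tried. The share of tested ligands with both CD4/ALK4-KO libraries above both WT libraries was 25%, against 32.7% of all genes. The share with both below was 46.9%, against 34% of all genes. The median log2 fold change of the 32 ligands was −0.20 on the library scale, −2.41 on the T cell receptor scale and 0.019 on a scale set by 10 macrophage markers, on which only *Xcl1*, *Ccl5* and *Ccl22* were called higher and only *Ccl11* lower.

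**Figure D1:**
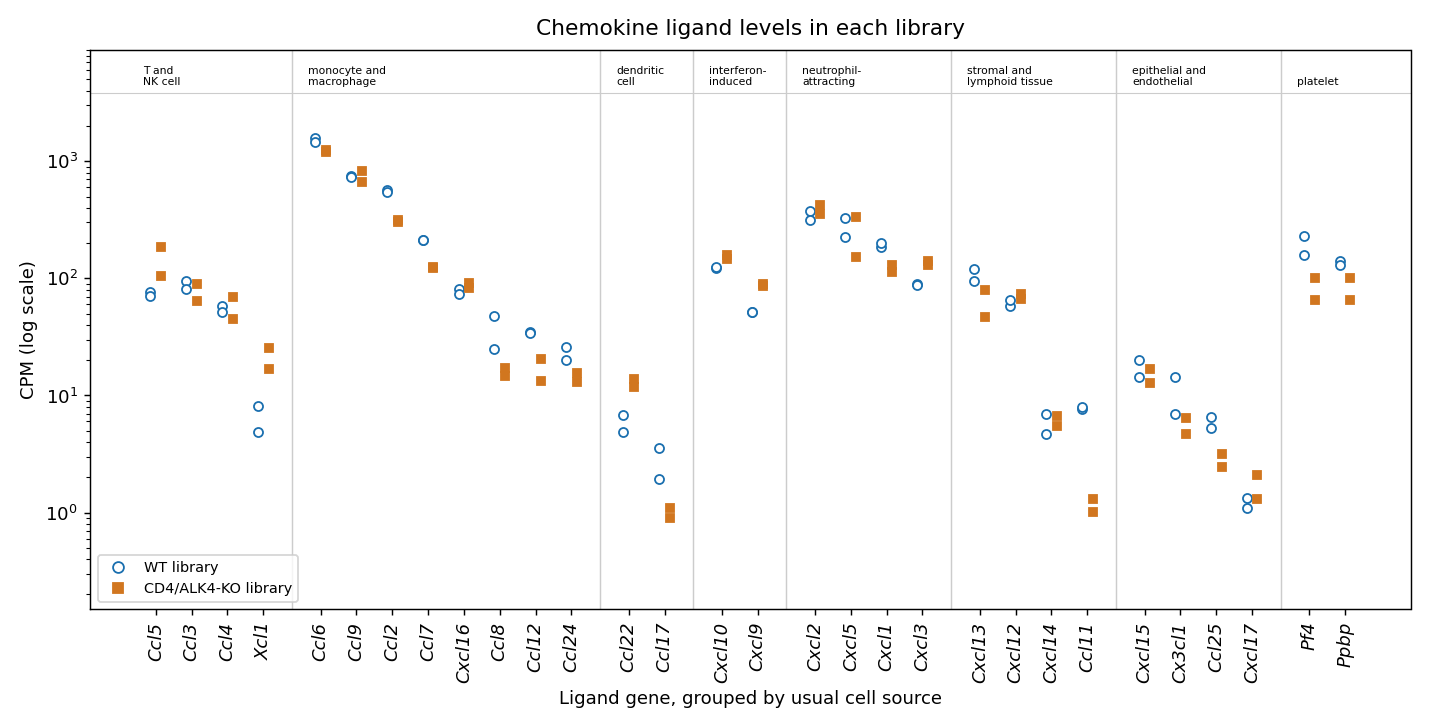
Level of the 30 chemokine ligand genes counted at least 20 times in some library, in CPM on a log axis, with 1 point per library (open circles WT, filled squares CD4/ALK4-KO), grouped by usual cell source. Ccl6 is the topmost gene at 1206 to 1572 CPM, and Ccl11 shows a wide gap between the labels, from 7.66 and 7.98 CPM down to 1.01 and 1.30 CPM.

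**Figure D2:**
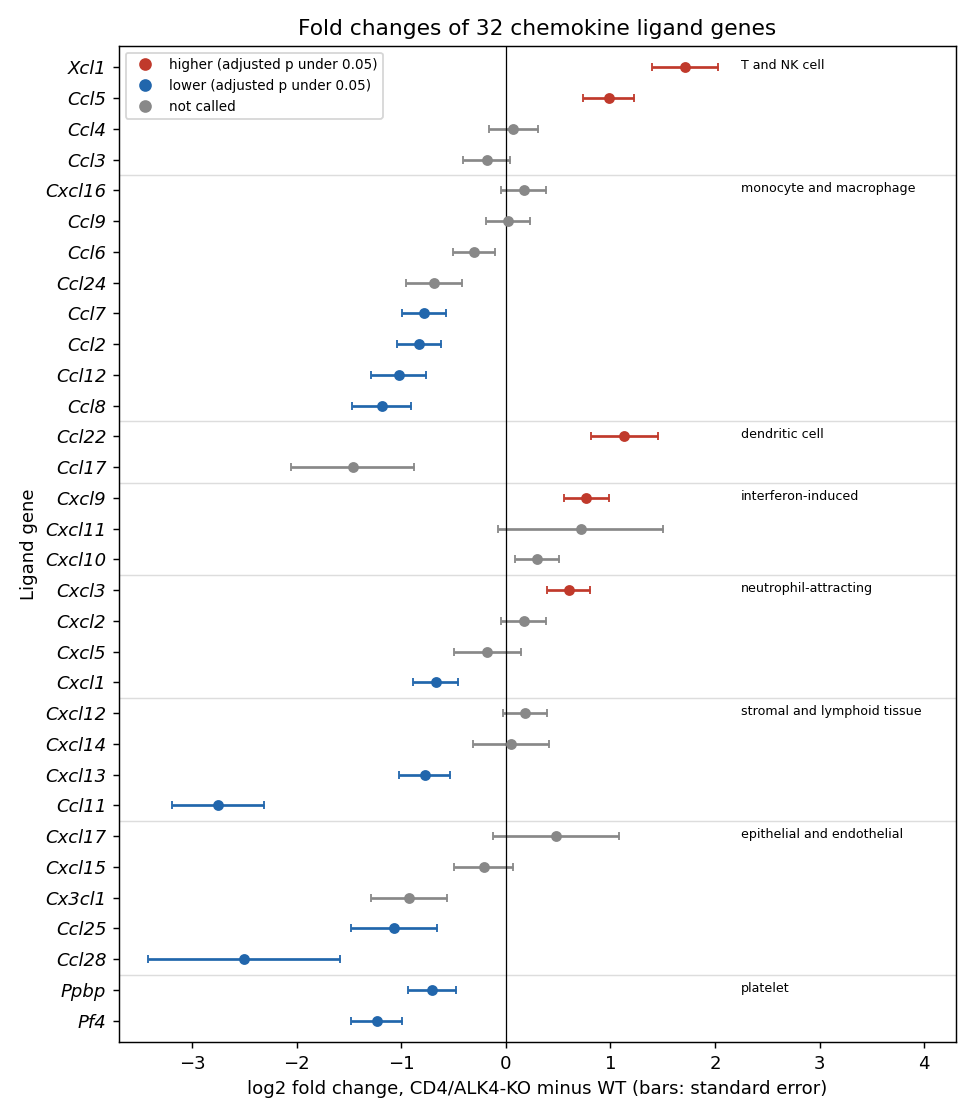
log2 fold change of the 32 tested ligand genes, CD4/ALK4-KO minus WT on the library scale, with bars of 1 standard error, grouped by usual cell source. The 5 called higher (red) range from 0.60 for Cxcl3 to 1.71 for Xcl1, all of them below 0 on the T cell receptor scale, and the 11 called lower (blue) range from −2.75 for Ccl11 to −0.67 for Cxcl1.

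Per kilobase of exon, the libraries were dominated by ligands of myeloid cells and not by those of T cells. *Ccl6*, a mouse macrophage and neutrophil chemokine that binds CCR1, ranked first under both labels, at 845 CPM per kb under WT and 684 CPM per kb under CD4/ALK4-KO. *Ccl2*, the main attractant of monocytes, ranked second at 488 and 274 CPM per kb. *Pf4*, platelet factor 4, was the third under WT at 270 CPM per kb, and its 2 libraries spanned the levels of *Ccl7* at 267 and *Ccl9* at 242, so that these neighbours did not differ beyond their spread. It ranked eighth under CD4/ALK4-KO, at 115 CPM per kb. *Ccl5*, the highest T cell ligand there, went from rank 13 at 76.8 CPM per kb to rank 6 at 152. The 3 most counted genes, *Ccl6*, *Ccl9* and *Ccl2*, together held 55.6% and 55.5% of all ligand counts under WT and 54.1% and 51.7% under CD4/ALK4-KO.

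Of the 4 tested ligands that T and NK cells usually make, *Xcl1* and *Ccl5* were higher per library (though below 0 on the T cell receptor scale) and *Ccl3* and *Ccl4* passed no test. *Xcl1* encodes lymphotactin, which activated CD8 T cells and NK cells release and which draws the cross-presenting dendritic cells that carry XCR1. It measured 4.89 and 8.06 CPM under WT and 16.9 and 25.6 CPM under CD4/ALK4-KO (67, 109, 201 and 316 counts). The groups did not overlap, and the rise was 1.71 ± 0.32 on the log2 library scale (adjusted p = 0.00025, edgeR), whereas on the T cell receptor scale the value was −0.46. Leaving out any 1 library kept the call, with log2 values of 1.38 to 2.11. *Ccl5*, RANTES, which effector T cells store and release, measured 76.2 and 71.3 CPM against 106 and 186 CPM (1044, 964, 1258 and 2292 counts). Both CD4/ALK4-KO libraries were above both WT libraries, but they differed from each other by more than the lower of them did from WT, and the rise of 0.98 ± 0.24 (adjusted p = 0.0033) became −1.18 on the T cell receptor scale. It was 0.51 without CD4/ALK4-KO replicate 2, and it lost its call without WT replicate 2, at 0.93.

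*Ccl3* and *Ccl4* encode MIP-1α and MIP-1β, which T cells, NK cells and macrophages all release on activation. *Ccl3* was measured at 94.6 and 80.8 CPM under WT against 63.9 and 90.4 CPM (1296, 1093, 761 and 1116 counts), and *Ccl4* at 57.6 and 51.4 CPM against 45.0 and 69.3 CPM (790, 695, 536 and 856 counts). The groups overlapped for both genes, with log2 values of −0.18 ± 0.22 and 0.069 ± 0.23. All 10 CD8 T cell and NK cell markers were higher beside them, at a summed 235 to 310 CPM under WT and 932 to 1025 CPM under CD4/ALK4-KO (median log2 value 1.75), led in level by *Gzma* (1.42), *Nkg7* (1.73) and *Gzmb* (1.65). The part of these cells and of the T cells in the 4 ligand values was not tested.

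Of the 8 monocyte and macrophage ligands, *Ccl2*, *Ccl7*, *Ccl8* and *Ccl12* were lower, and *Ccl6*, *Ccl9*, *Ccl24* and *Cxcl16* passed no test. Whether the 4 that were lower differed from the other 4 was not tested. *Ccl2* (MCP-1) measured 567 and 544 CPM under WT and 318 and 305 CPM under CD4/ALK4-KO (7767, 7354, 3787 and 3764 counts). *Ccl7* (MCP-3) measured 213 and 214 CPM against 125 and 124 CPM (2925, 2889, 1487 and 1525 counts). In both genes the replicates lay close together and the groups far apart, and the log2 values were −0.83 ± 0.21 (adjusted p = 0.0044) and −0.78 ± 0.21 (adjusted p = 0.0068). *Ccl12* (MCP-5), like CCL2 and CCL7 a CCR2 ligand, measured 34.6 and 34.2 CPM against 13.4 and 20.4 CPM (474, 462, 159 and 252 counts), a log2 value of −1.02 ± 0.26 (adjusted p = 0.0045). *Ccl8* (MCP-2), whose mouse form binds CCR8, measured 47.3 and 25.1 CPM against 14.5 and 17.3 CPM (648, 340, 173 and 213 counts). Its libraries did not overlap by label, yet the WT libraries differed widely, and the log2 value of −1.19 ± 0.28 (adjusted p = 0.0027) was −0.67 and not called without WT replicate 1. The other 3 also lost their calls without that library, at −0.81 for *Ccl2*, −0.79 for *Ccl7* and −1.02 for *Ccl12*, and without WT replicate 2 the calls of *Ccl2* (−0.87) and *Ccl7* (−0.79) were lost. On the macrophage marker scale none of the 4 was called.

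*Ccl6* measured 1572 and 1463 CPM against 1251 and 1206 CPM (21541, 19787, 14888 and 14893 counts), groups that did not overlap but whose log2 difference of −0.30 ± 0.20 passed no test (adjusted p = 0.25). *Ccl9*, a CCR1 ligand of macrophages that lies beside *Ccl6* in the genome, measured 749 and 727 CPM against 833 and 667 CPM (10260, 9840, 9911 and 8239 counts), overlapping, with a log2 value of 0.023 ± 0.21. The ratio of *Ccl2* to *Ccl9* counts within a library needs no scale, and it was 0.757 and 0.747 under WT and 0.382 and 0.457 under CD4/ALK4-KO. This ratio and those below were chosen after the values were seen. *Ccl24*, eotaxin-2 of alternatively activated macrophages, had 357 and 273 counts against 186 and 161, with a log2 value of −0.69 ± 0.27 just outside the threshold (adjusted p = 0.053). *Cxcl16*, a membrane-bound ligand of CXCR6, measured 81.9 and 72.8 CPM against 92.1 and 82.0 CPM (1122, 985, 1096 and 1012 counts), groups that touched without overlapping. Its log2 value was 0.17 ± 0.21 and passed no test, and 15.4% of its 75-base windows are shared with the overlapping gene *Zmynd15*.

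Of 10 macrophage markers, 1 was higher (*Csf1r*) and 0 were lower in edgeR and in DESeq2, with 2 lower at an unadjusted p under 0.05, a median log2 value of −0.42 and summed levels of 2310 to 3282 CPM under WT and 2196 to 2423 CPM under CD4/ALK4-KO. The most abundant of them, *Apoe* (−0.41), *Msr1* (−0.13) and *Mrc1* (−0.42), were not called. Of 7 monocyte markers 2 were higher and 2 lower (median −0.49), with summed levels of 4329 to 5005 CPM against 2834 to 3286 CPM, the most abundant being *S100a4* (−2.01, lower), *Vcan* (−0.49, not called) and *Ccr2* (0.63, higher). *S100a4* alone held 1792 and 1713 CPM of these sums under WT and 323 and 549 CPM under CD4/ALK4-KO, so most of their fall was its own. *Ly6c2* (1.24) was the other marker called higher per library. Of 8 alveolar macrophage markers 1 was higher and 2 were lower, and their summed levels were 765 to 920 CPM against 459 to 565 CPM, led by *Chil3* (−0.83, lower), *Marco* (−0.37, not called) and *Fabp4* (−1.13, lower). *Chil3*, which is in the monocyte list too, held 538 and 717 CPM of either sum under WT and 405 and 301 CPM under CD4/ALK4-KO. Fibroblast markers, from cells that also make CCL2 and CCL7, had 4 of 8 lower (median −0.69) at a summed 6723 to 7325 CPM against 3972 to 4784 CPM, led by *Col3a1* (−0.93, lower), *Dcn* (−0.69, lower) and *Col1a2* (−0.28, not called). None of the defining markers of these lists was at 0. The part of these cells in the ligand values was not tested.

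**Figure D3:**
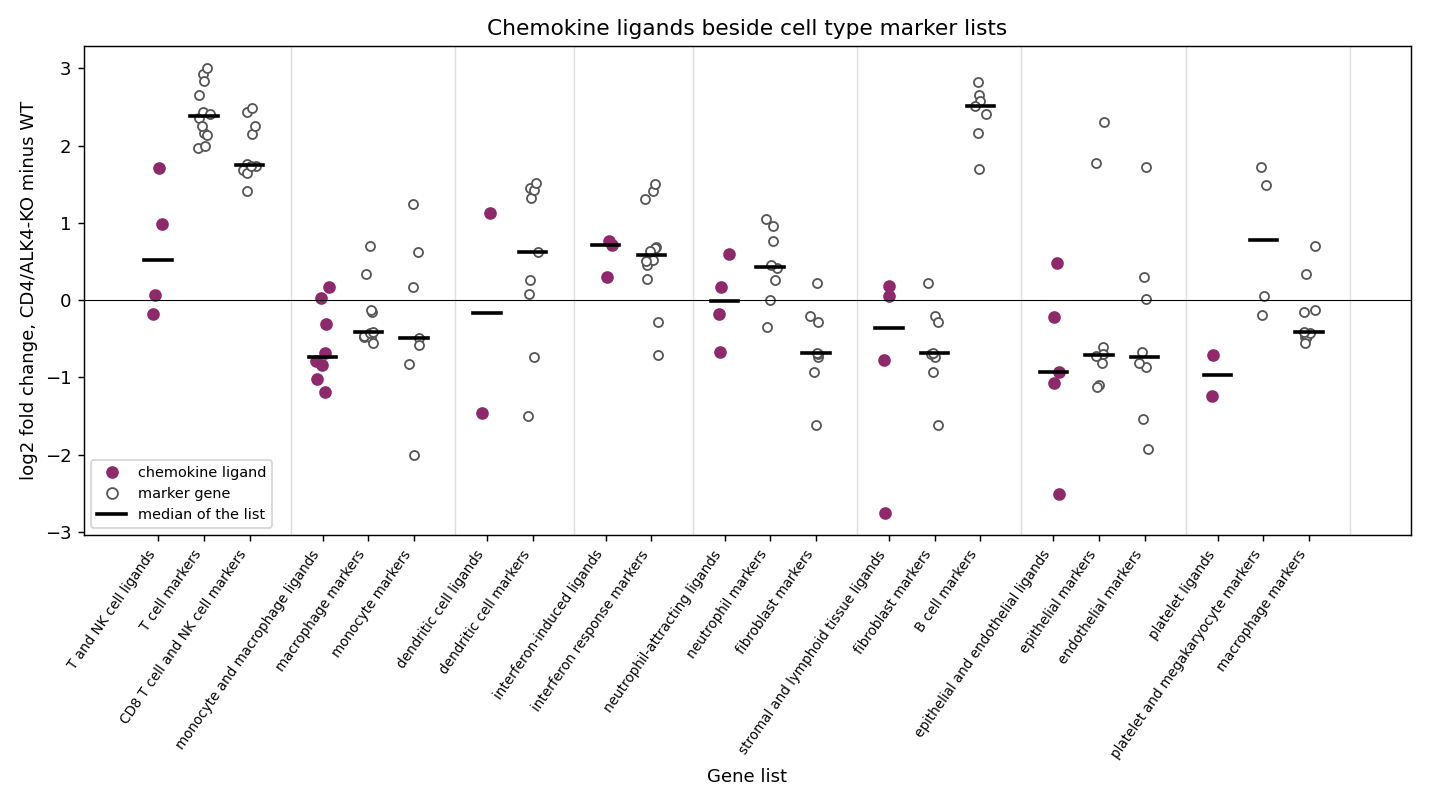
log2 fold change, CD4/ALK4-KO minus WT on the library scale, of each chemokine ligand (filled) and of the marker lists set beside its group (open), 1 point per tested gene, with the median of each list as a bar. Neutrophil and B cell markers stand for cells that ligands of the group draw, and the interferon response list marks no cell type. The medians of the T cell and B cell markers stand at 2.38 and 2.52, above every ligand, and that of the monocyte and macrophage ligands at −0.74 beside −0.42 for macrophage markers; on the T cell receptor scale all 32 ligands were below 0.

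*Ccl2*, *Ccl7*, *Ccl11*, *Ccl12* and *Ccl8* sit side by side on chromosome 11, from 82035571 to 82116799 in GRCm38 with the GENCODE M21 annotation, a stretch of 81.2 kb in which all 5 genes were lower, with a median log2 value of −1.02. *Ccl1*, the next ligand gene along the chromosome, was not tested. A second CC cluster on the same chromosome, from 83525778 to 83664683, holds *Ccl5*, *Ccl9*, *Ccl6*, *Ccl3* and *Ccl4*, of which 1 was higher on the library scale (*Ccl5*, −1.18 on the T cell receptor scale), none was lower in edgeR even at an unadjusted p under 0.05, and the median was 0.023. On chromosome 5, from 90759360 to 90905938, the CXC cluster of 7 genes was mixed, with *Cxcl3* higher on the library scale (−1.59 on the T cell receptor scale), *Pf4*, *Ppbp* and *Cxcl1* lower, and *Cxcl2*, *Cxcl5* and *Cxcl15* not called. Differences between genes of a cluster do not depend on the scale, while their distance from 0 does. Each cluster was grouped by position with the values known, and the clusters were not compared by a test.

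**Figure D4:**
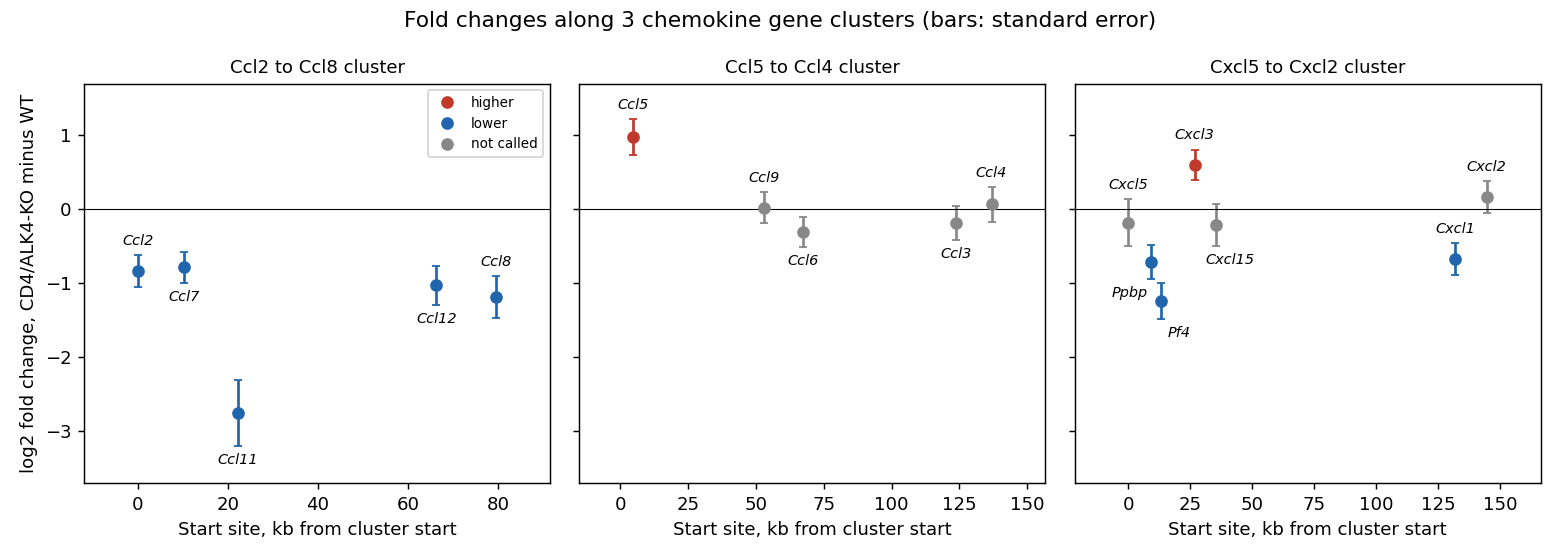
log2 fold change, CD4/ALK4-KO minus WT on the library scale with bars of 1 standard error, of the ligand genes in 3 chemokine clusters, placed by the distance of the start site from the cluster's start in kb. All 5 genes of the Ccl2 to Ccl8 cluster lie below 0, while the other clusters hold 1 gene each above 0 that was called higher, Ccl5 at 0.98 and Cxcl3 at 0.60, both below 0 on the T cell receptor scale.

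Among the CXC ligands that draw neutrophils through CXCR2, *Cxcl1* and *Cxcl3* moved in opposite directions per library, though on the T cell receptor scale both lay below 0. *Cxcl1* (KC) measured 186 and 201 CPM under WT and 130 and 113 CPM under CD4/ALK4-KO (2547, 2718, 1543 and 1396 counts). *Cxcl3* measured 89.6 and 88.4 CPM against 140 and 130 CPM (1228, 1196, 1670 and 1603 counts). Neither gene overlapped between labels, and the log2 values were −0.67 ± 0.21 for *Cxcl1* (adjusted p = 0.018) and 0.60 ± 0.21 for *Cxcl3* (adjusted p = 0.029), the latter −1.59 on the T cell receptor scale. Their ratio within a library, *Cxcl3* to *Cxcl1*, was 0.482 and 0.440 under WT and 1.08 and 1.15 under CD4/ALK4-KO, on any scale. Both calls were lost without either WT library, at −0.73 and −0.62 for *Cxcl1* and 0.60 and 0.58 for *Cxcl3*.

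*Cxcl2* (MIP-2), the closest relative of both, measured 377 and 314 CPM against 355 and 422 CPM (5168, 4242, 4223 and 5206 counts), overlapping, with a log2 value of 0.17 ± 0.22. *Cxcl5* (LIX), a product of epithelium, measured 227 and 326 CPM against 336 and 153 CPM (3113, 4406, 3997 and 1890 counts), and its 2 CD4/ALK4-KO libraries enclosed both WT libraries. Its log2 value was −0.18 ± 0.32, but −0.82 and called without CD4/ALK4-KO replicate 1 and 0.28 without its partner, replicate 2. Windows of 75 bases shared between *Cxcl2* and *Cxcl3* make up 4.57% and 2.78% of their transcripts, so reads from those windows could belong to either gene. Neutrophil markers had 2 of 8 higher and none lower in edgeR or DESeq2, nor at an unadjusted p under 0.05 (median 0.43), at a summed 928 to 1417 CPM against 922 to 1472 CPM. Their most abundant genes, *S100a9* (0.0056), *S100a8* (−0.35) and *Retnlg* (0.26), were not called, and their part was not tested.

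The promoters of *Cxcl1*, *Cxcl2* and *Cxcl3* are shown because the 3 genes are close copies that did not move together. Below are the 250 bases before each RefSeq start site in GRCm38.p6, with matches to the NF-kB consensus in capitals; *Cxcl10*, the interferon-induced ligand described next, is set beside them with its further matches to the interferon-stimulated response element (TTTC, any 2 bases, TTTC) and the AP-1 site TGANTCA.
Cxcl1, chr5:90890995-90891244, plus strand: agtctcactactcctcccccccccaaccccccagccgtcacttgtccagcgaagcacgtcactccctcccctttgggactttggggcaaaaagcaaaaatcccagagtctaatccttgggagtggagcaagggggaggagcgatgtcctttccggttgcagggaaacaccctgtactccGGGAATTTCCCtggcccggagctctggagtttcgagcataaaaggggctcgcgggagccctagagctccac
Cxcl2, chr5:90903649-90903898, plus strand: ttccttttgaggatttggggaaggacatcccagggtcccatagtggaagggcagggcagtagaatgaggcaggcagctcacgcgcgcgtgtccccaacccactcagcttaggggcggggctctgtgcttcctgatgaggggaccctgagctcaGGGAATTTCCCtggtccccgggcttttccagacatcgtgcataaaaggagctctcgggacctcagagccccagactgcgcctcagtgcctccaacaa
Cxcl3, chr5:90785851-90786100, plus strand: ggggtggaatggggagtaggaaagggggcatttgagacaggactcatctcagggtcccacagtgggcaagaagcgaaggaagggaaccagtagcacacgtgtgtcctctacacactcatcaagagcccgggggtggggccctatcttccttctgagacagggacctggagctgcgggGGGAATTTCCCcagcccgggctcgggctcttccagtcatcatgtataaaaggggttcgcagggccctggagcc
Cxcl10, chr5:92348890-92349139, minus strand: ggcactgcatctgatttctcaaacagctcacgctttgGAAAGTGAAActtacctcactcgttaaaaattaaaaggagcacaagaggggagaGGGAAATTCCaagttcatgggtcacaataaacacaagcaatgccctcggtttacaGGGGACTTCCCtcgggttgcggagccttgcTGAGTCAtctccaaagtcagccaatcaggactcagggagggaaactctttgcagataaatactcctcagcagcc

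The same 11 letters, GGGAATTTCCC, stand in capitals in the 3 neutrophil attractants, starting 71 bases before the start site in *Cxcl1*, 97 in *Cxcl2* and 73 in *Cxcl3*. They are 2 overlapping matches of the consensus, one on either strand. In the 30 bases around them *Cxcl1* and *Cxcl2* were identical at 23 positions, *Cxcl1* and *Cxcl3* at 19, and *Cxcl2* and *Cxcl3* at 17. Of the 26 members with a promoter in the table, 7 held an NF-kB match on either strand (*Ccl1*, *Ccl20*, *Ccl9*, *Cxcl1*, *Cxcl2*, *Cxcl3* and *Cxcl10*), where 7.25% of 32851 mouse promoters did. On the library scale those 7 include ligands that were higher, lower, not called and not tested. In *Cxcl10* the interferon-type match is the stretch in capitals nearest the 5′ end. A match to that element occurred in 3 of the 26 members and in 2.98% of all promoters, one to TGANTCA in 4 members and 6.75% of promoters, and one to the interferon-gamma activated site TTCNNNGAA in 2 members and 7.02% of promoters. These are matches of letters, not measured binding.

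Of the 3 interferon-induced ligands of CXCR3, *Cxcl9* was higher per library (though below 0 on the T cell receptor scale) and *Cxcl10* and *Cxcl11* passed no test. *Cxcl9* (MIG), which answers mainly to interferon gamma, measured 51.3 and 51.3 CPM under WT and 85.9 and 88.9 CPM under CD4/ALK4-KO (703, 694, 1023 and 1098 counts). The replicates were nearly equal within each label, and the rise of 0.77 ± 0.21 (adjusted p = 0.0078) was −1.41 on the T cell receptor scale. It missed the threshold without either WT library, at 0.76 both times. *Cxcl10* (IP-10), which type I interferon also induces, measured 123 and 126 CPM against 159 and 148 CPM (1692, 1699, 1889 and 1824 counts), and its log2 value was 0.30 ± 0.21 (adjusted p = 0.29). The ratio of *Cxcl9* to *Cxcl10* counts was 0.415 and 0.408 under WT and 0.542 and 0.602 under CD4/ALK4-KO. *Cxcl11* had 15 and 2 counts against 9 and 16 (log2 value 0.71 ± 0.79), and 39.8% of its 75-base windows occur in another gene, so its level is uncertain. Of 12 interferon response genes 6 were higher and 1, *Isg15* at −0.71, was lower on the library scale, while on the T cell receptor scale all 12 were lower. Of its most abundant genes, *Gbp2* (0.50) and *Rsad2* (−0.28) were not called. The list summed to 1898 to 2558 CPM against 2984 to 3886 CPM, and its part in the ligand values was not tested.

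The dendritic cell ligands *Ccl22* and *Ccl17* bind the same receptor, CCR4, which draws regulatory and Th2 cells. *Ccl22* measured 6.86 and 4.88 CPM under WT and 13.9 and 11.9 CPM under CD4/ALK4-KO (94, 66, 165 and 147 counts). *Ccl17* measured 3.58 and 1.92 CPM against 1.09 and 0.891 CPM (49, 26, 13 and 11 counts). The groups did not overlap for either gene, in opposite directions, with log2 values of 1.13 ± 0.32 for *Ccl22* (adjusted p = 0.0087, turning to −1.05 with the T cell receptor genes as the scale) and −1.46 ± 0.59 for *Ccl17* (adjusted p = 0.059). The ratio of *Ccl22* to *Ccl17* counts was 1.92 and 2.54 under WT and 12.7 and 13.4 under CD4/ALK4-KO, on any scale, though *Ccl17* rests on 11 to 49 counts a library. Without WT replicate 2, *Ccl22* was not called (0.90), and without CD4/ALK4-KO replicate 1, *Ccl17* was called lower (−1.59). Dendritic cell markers had 4 of 9 higher and 2 lower, with 7 above 0 and a median of 0.62 per library. Their summed level was 239 to 252 CPM against 240 to 261 CPM. Within that sum *Fscn1* alone held 149 and 120 CPM under WT and 50.7 and 44.5 CPM under CD4/ALK4-KO, so the sum hides genes that moved in opposite directions. The most abundant were *Fscn1* of mature dendritic cells (−1.50, lower), *Itgax* (1.42 and higher per library, though the whole list was lower on the T cell receptor scale) and *Clec9a* (−0.73, lower), and their part was not tested.

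Of the 4 tested stromal and lymphoid tissue ligands, *Ccl11* and *Cxcl13* were lower and *Cxcl12* and *Cxcl14* passed no test. *Ccl11*, eotaxin-1, which fibroblasts and epithelium make and which draws eosinophils through CCR3, had 105 and 108 counts under WT against 12 and 16 under CD4/ALK4-KO. In CPM these were 7.66 and 7.98 against 1.01 and 1.30, and the fall of −2.75 ± 0.44 (adjusted p = 5.3e-05) was called with any 1 library left out, at −2.95 to −2.55, and on every scale tried. *Cxcl13*, the B cell attractant of follicles, measured 121 and 94.6 CPM against 46.5 and 79.5 CPM (1662, 1279, 553 and 982 counts), groups that came close without overlapping. Its log2 value was −0.78 ± 0.24 (adjusted p = 0.018), and it was −0.59 and not called without WT replicate 1. It was −0.41 and not called when CD4/ALK4-KO replicate 1 was left out, and −1.22 when the other CD4/ALK4-KO library was. All 7 B cell markers were higher per library meanwhile, from a summed 58.1 and 69.0 CPM to 193 and 394 CPM, and on the T cell receptor scale 5 lay above 0 and none was called. *Cd79b*, *Ms4a1* and *Cd22* were the most abundant of these. *Cxcl12* (SDF-1), the CXCR4 ligand of fibroblasts and endothelium, measured 58.0 and 65.6 CPM against 74.2 and 66.1 CPM (795, 887, 883 and 816 counts), a log2 value of 0.18 ± 0.21. *Cxcl14*, a ligand of fibroblasts and epithelium, had 96 and 64 counts against 79 and 68, overlapping, with a log2 value of 0.05 ± 0.36. The part of the fibroblasts, whose markers were given above, was not tested in these values either.

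Epithelial and endothelial ligands were scarce, with 24.4 to 36.7 CPM summed over the list in any library. *Ccl25*, the CCR9 ligand of gut and thymus epithelium, had 72 and 89 counts under WT and 38 and 30 under CD4/ALK4-KO, a log2 value of −1.07 ± 0.41 close to the threshold (adjusted p = 0.049). It kept its call only without CD4/ALK4-KO replicate 1, and was −1.23 without WT replicate 1, −0.91 without WT replicate 2 and −0.89 without CD4/ALK4-KO replicate 2. It also missed the threshold in the DESeq2 Wald test (adjusted p = 0.091) and with DESeq2 size factors (adjusted p = 0.051). *Ccl28*, a mucosal ligand of CCR10, had 18 and 15 counts against 0 and 5 (−2.51 ± 0.92, adjusted p = 0.039), and its call was lost without either WT library (−2.39 and −2.63) and without CD4/ALK4-KO replicate 1 (−1.53). It was lost as well in the DESeq2 Wald test (adjusted p = 0.13) and without the filter on low counts (adjusted p = 0.051). With CD4/ALK4-KO replicate 1, at 0 counts, as the sole CD4/ALK4-KO library, the fitted value of −7.00 is no bound. *Cx3cl1*, fractalkine of endothelium and epithelium, measured 14.3 and 6.95 CPM against 4.70 and 6.48 CPM (196, 94, 56 and 80 counts). It was −0.92 ± 0.36 on the log2 scale (adjusted p = 0.053), and was called lower without WT replicate 2 (−1.36) or CD4/ALK4-KO replicate 2 (−1.18). *Cxcl15*, lungkine of airway epithelium, had 197 and 269 counts against 200 and 158 (−0.21 ± 0.28), and *Cxcl17* had 15 and 18 against 25 and 16 (0.48 ± 0.60). Both overlapped between labels. Epithelial markers had 5 of the 8 tested lower and 2 higher per library, at a summed 890 to 899 CPM against 436 to 583 CPM, led by *Scgb1a1* of club cells (−0.73), *Krt18* (−1.12) and *Krt8* (−1.09), each of them lower. Endothelial markers had 2 of 8 lower and 1 higher, with 5 below 0 and a median of −0.74 per library. Their sum nevertheless went from 70.8 to 83.3 CPM up to 126 to 146 CPM. *Pecam1*, also a gene of leukocytes (1.72, higher per library), held 22.5 and 42.7 CPM of it under WT and 106 and 108 CPM under CD4/ALK4-KO. Next in level were *Kdr* (0.013, not called) and *Egfl7* (−1.93, lower). The part of epithelial and endothelial cells in these ligands was not tested.

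Both ligands of platelet granules were lower. *Pf4* (CXCL4) measured 232 and 157 CPM under WT and 64.9 and 101 CPM under CD4/ALK4-KO (3177, 2130, 773 and 1241 counts). *Ppbp* (CXCL7, the precursor of a CXCR2 ligand) measured 140 and 131 CPM against 101 and 64.7 CPM (1916, 1769, 1201 and 799 counts). Neither overlapped, and *Pf4* fell by 1.23 on the log2 scale (SE 0.24, adjusted p = 0.00051), called with any 1 library left out at −1.59 to −0.92, while *Ppbp* fell by 0.71 (SE 0.23, adjusted p = 0.020). The call of *Ppbp* was lost without WT replicate 1 (−0.67), WT replicate 2 (−0.76) or CD4/ALK4-KO replicate 2 (−0.43). Of 8 other platelet and megakaryocyte markers 4 were tested, and 1 was higher (*Itgb3*, an integrin that myeloid cells also carry, at 1.73 per library). The other 3 were not called, and none was lower in edgeR or DESeq2, nor at an unadjusted p under 0.05, where 2 of the 4 were higher. The list summed to 28.3 and 25.6 CPM under WT and 59.8 and 79.9 CPM under CD4/ALK4-KO. *Itgb3* alone held 17.3 and 18.8 CPM and then 51.9 and 67.6 CPM of these sums, so their rise is not one of the list as a whole. The part of platelets was not tested. In counts, *Itga2b* had 54 to 79 a library, *Gp9* 4 to 32 and *Gp6* 0 to 6. *Gp1ba* had 6 and 15 counts under WT against 26 and 27 under CD4/ALK4-KO, without overlap. Its log2 value was 1.49 ± 0.63 and not called (adjusted p = 0.074, edgeR). On the macrophage marker scale neither ligand was called.

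Of 17 tested chemokine receptors, 12 were higher per library and none lay below 0, with a median log2 value of 1.07 in edgeR, whereas on the T cell receptor scale 1 was higher and 9 were lower, with a median of −1.10. Among the most abundant that were called, *Cxcr5*, the follicular homing receptor that binds CXCL13, was at 2.98, *Cxcr3* at 2.48, *Ccr7* at 2.12 and *Cxcr6* at 1.95. T cell subsets carry these receptors, though not T cells alone, and the median was 2.38 for T cell markers and 2.52 for B cell markers. *Cxcr5* measured 18.6 and 37.8 CPM in CD4/ALK4-KO replicates 1 and 2, where B cell markers summed to 193 and 394 CPM and T cell markers to 2419 and 2305 CPM. The part of either cell type in the receptor values was not tested. The receptors that monocytes, neutrophils and other leukocytes share were nearer to 0, with *Cx3cr1* at 0.86, *Cxcr2* at 0.76, *Cxcr4* at 0.69 and *Ccr2* at 0.63. Further receptors are named here after their values were seen: *Ccr4* at 2.93 and *Ccr8* at 2.36 were called higher, and *Ccr1* at 0.26 was not called. *Ccr9* was at 3.18 with an SE of 1.36 and not called, with 1435 counts in CD4/ALK4-KO replicate 1 and 96 to 224 in the other 3 libraries. In 24 pairs of a ligand and a main receptor, paired after the values were seen, 9 had a ligand that was lower. Of those 9, 8 had a receptor that was higher on the library scale, as had 20 of all 24 pairs, although 9 of 17 receptors were lower on the T cell receptor scale. The 24 pairs hold only 13 receptors and are not separate observations. *Ccl2*, *Ccl7* and *Ccl12* share the value of *Ccr2*, and *Cxcl1* and *Ppbp* that of *Cxcr2*. Of the ligands that were higher per library (below 0 on the T cell receptor scale), the receptor was higher per library in 3 pairs and not called in 1, *Xcl1* with *Xcr1*.

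**Figure D5:**
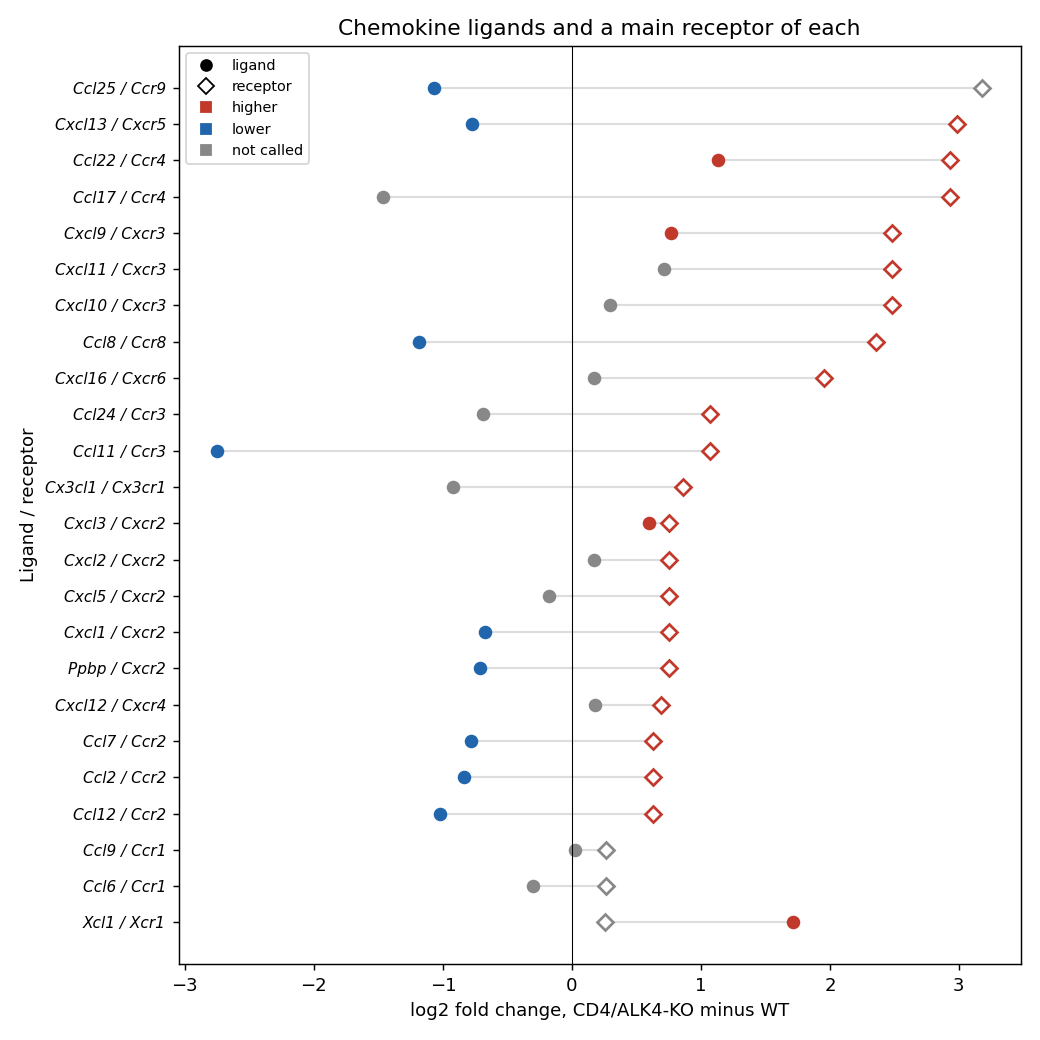
log2 fold change, CD4/ALK4-KO minus WT on the library scale, of the ligand (circle) and a main receptor (diamond) in 24 pairs, ordered by the receptor. The pairs hold 13 receptors, so a receptor can appear more than once. Every receptor lies above 0 here, from 0.26 for Xcr1 to 3.18 for Ccr9, while 9 ligands were called lower; on the T cell receptor scale all the ligands and 11 of the 17 tested receptors lie below 0.

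Further genes take up or cut chemokines or relay the receptor's signal. Of 3 tested atypical receptors, which bind chemokines without signalling for movement, *Ackr3*, the scavenger of CXCL12, was lower, with 862 and 824 counts under WT and 426 and 284 under CD4/ALK4-KO, a log2 value of −1.07. Of 6 processing genes only *Dpp4* (CD26), the T cell surface protease that trims CXCL10 and CCL22, was higher per library, at 0.82, and on the T cell receptor scale all 6 were lower. Of 10 genes of receptor signalling 6 were higher per library, among them *Dock2* at 2.20, the exchange factor for Rac in migrating lymphocytes, and *Rac2* at 2.15, while on the T cell receptor scale 8 of the 10 were lower.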

How the data were processed

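RNA was sequenced from lung tumor-infiltrating CD4+ T cells of 2 libraries per label. Per the labels and methods, the authors aligned reads of 75 bp with HISAT2 to mm10 and counted them per gene with HTSeq, and the deposited files hold raw counts; kit strandedness and the counting strand are not given in the sources used here. From these counts edgeR 4.0.16 (R 4.3.3) was run with TMM scaling, filterByExpr and the robust quasi-likelihood test of CD4/ALK4-KO against WT, with Benjamini-Hochberg adjustment over 13919 genes and a call at 0.05. The standard error is the fold change over the square root of F. p-values measure the spread between 2 libraries a group. A count of 0 allows up to 3 counts (0.219 to 0.252 CPM), and this covers counting error only. The test, checked on simulated counts, recovered 100% of the 200 genes given a log2 change of 2, with 7 false calls among 13754 genes. The changed genes were drawn from those with higher mean counts, and all genes were given the common dispersion. The check therefore does not cover smaller changes, genes of low counts or genes of larger spread. Replicates differed beyond counting noise (chi-square per degree of freedom 16.0 and 28.7).

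Alternatives were DESeq2 1.42.0 (Wald test and size factors), upper quartile, T cell receptor and macrophage marker scales, other filters, the likelihood ratio test, a replicate block and leaving out each library. The 36 members and all lists were chosen with earlier results of these data known. By rule, every member is described, with its counts in each library where any held at least 20, and in other lists up to 8 called pathway genes or 3 markers of the highest mean CPM are named; other names were chosen after their values were seen. *Trac*, *Trbc1* and *Trbc2* were not used here for the T cell receptor scale. Promoters came from RefSeq (GRCm38.p6), matched for 26 of 36 members, and coordinates, exon lengths and shared 75-base windows from GENCODE M21 (GRCm38). Shared windows reached 45.3% in *Ccl19*, 39.8% in *Cxcl11* and 33.3% in *Ccl27a*. A few genes of the lists are not reported here by name.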

Additional observations from a re-analysis of the deposited data

How the results depend on the processing

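Of the 32 ligands, scaling moved the directions most. On the T cell receptor scale 0 members were higher and 30 lower (all genes 48 and 12803, member median −2.41), and 14 values turned: *Ccl22* −1.05, *Ccl4* −2.10, *Ccl5* −1.18, *Ccl9* −2.17, *Cxcl10* −1.89, *Cxcl11* −1.42, *Cxcl12* −2.01, *Cxcl14* −2.13, *Cxcl16* −2.02, *Cxcl17* −1.71, *Cxcl2* −2.01, *Cxcl3* −1.59, *Cxcl9* −1.41 and *Xcl1* −0.46. On the macrophage marker scale, whose markers differed between the WT libraries, 3 members were higher and 1 lower (all genes 1951 and 502, member median 0.019), and *Ccl3* (0.059) and *Cxcl5* (0.040) turned. Upper quartile scaling turned *Ccl9* (−0.048) and *Cxcl14* (−0.025). Under the other tests, filters and DESeq2 size factors 5 members were higher and 9 to 14 lower, and no direction turned.

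Leaving out 1 library gave 1 to 5 members higher and 2 to 12 lower, and 1103 to 2923 of all genes higher and 754 to 2618 lower. The values of genes that turned ranged from −0.46 to 0.075 for *Ccl3*, −0.28 to 0.38 for *Ccl4*, −0.11 to 0.17 for *Ccl9*, −0.82 to 0.28 for *Cxcl5*, −0.10 to 2.71 for *Cxcl11*, −0.21 to 0.35 for *Cxcl14* and −0.43 to 0.033 for *Cxcl15*.

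Replicate numbers are shared by both labels, but nothing states that they pair the libraries, and the correlation of same-numbered deviations was −0.263. With the number as a replicate block 4 members were higher and 8 lower (1768 and 1444 of all genes). A crossed pairing, added after seeing the data, gave 5 and 13 members (3118 and 3037 genes).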
